A study of Mus musculus with 20 samples.

Results

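Carbonic anhydrases interconvert carbon dioxide and bicarbonate, and the genes described here are the 9 family members Car2, Car4, Car7, Car8, Car9, Car10, Car11, Car12 and Car14. They were chosen by gene symbol from the family, with earlier results of these data known, as 9 of the 55401 genes of the count table. A further 7 carbonic anhydrase genes (Car1, Car3, Car5a, Car5b, Car6, Car13 and Car15) are given beside them. The study tested an shRNA directed at the CAG repeat, shA4, carried by an AAV of the PHP.eB capsid, in mice that model the polyglutamine disease SCA7 (spinocerebellar ataxia type 7). RNA was sequenced from the cerebellum of 20 mice of the C57BL/6J strain, 1 mouse per library. SCA7 mice are knock-in animals with a mutant Atxn7 allele of 140 glutamine codons and a normal allele of 5, and both alleles are counted together. At the time labelled 25 weeks, 5 SCA7 mice had received AAV-shA4, 5 had been given AAV-shSCR with a scrambled shRNA as control, and 4 WT mice were untreated.

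At the time labelled 9 weeks, 3 WT mice had received AAV-shA4 and 3 WT mice were untreated. Weeks are those of the labels, which name no starting day, whereas the study's text counts weeks after injection and gives fewer for the later time, so they should not be read as ages. All mice at 25 weeks were males, and the vector was injected behind the eye at about 5 weeks of age. The study used both sexes, not mixed within a treatment group, and its text does not give the sex of the mice at 9 weeks. The shRNA was driven by the H1 promoter, which is active in most cell types, and untreated mice received saline. No WT mouse at 25 weeks received a vector and no SCA7 mouse was left without one, so genotype and vector cannot be told apart in the comparisons with WT mice. The 2 label times are separate cohorts, so time and cohort cannot be told apart either, nor can a difference in sex if there was one. The numbers of reads counted on genes ran from 31465586 in an SCA7 mouse given AAV-shA4 to 54570503 in an untreated WT mouse at 25 weeks. Levels are counts-per-million (CPM) over protein-coding genes, scaled by the trimmed mean of M values over the 20 libraries.

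Among members that bind zinc and act as enzymes, Car2 and Car7 are cytosolic, Car4 is held on the cell surface by a lipid anchor, and Car9, Car12 and Car14 cross the membrane with the enzyme domain outside. Car8, Car10 and Car11 lack residues needed to bind zinc and have no known enzyme activity; Car8 binds the IP3 receptor Itpr1 in Purkinje cells (PCs) and its loss causes ataxia in mice, and Car10 and Car11 are secreted ligands of neurexins. In brain, the enzymes of the family buffer pH around synapses and supply bicarbonate to its transporters.

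Atxn7, the gene with the expanded repeat, stood at 44.4, 47.5, 49.5, 47.4 and 51.7 CPM in the SCA7 mice given AAV-shA4 and at 45.5, 53.3, 48.0, 50.5 and 50.01 CPM in those given AAV-shSCR. The ranges overlapped, with a log2 fold change of -0.04 ± 0.05 (SE; edgeR adjusted p = 0.842). Both alleles enter that value, so it does not check the labels allele by allele. The longest run of CAG in any annotated transcript of a member was 2 repeats in Car2, Car4, Car7, Car10, Car11, Car12 and Car14 and 1 repeat in Car8 and Car9. Markers of cerebellar cells were present in every library, with summed PC markers between 7349 and 11872 CPM and summed granule cell markers between 6336 and 9251 CPM.

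Levels of different members were compared per kb of median annotated transcript length. In untreated WT mice at 25 weeks, Car8 had the highest level at 456 ± 28.3 CPM per kb (SD, n = 4, as for the levels that follow), followed by Car4 at 261 ± 22.4 and Car2 at 247 ± 8.01. Car11 followed at 104 ± 2.32, Car10 at 79.1 ± 4.94 and Car7 at 47.5 ± 2.99. The lowest 3 were Car14 at 24.4 ± 4.01, Car9 at 17.2 ± 2.40 and Car12 at 8.13 ± 5.42. Neighbours in this order did not overlap between mice except Car4 with Car2, Car14 with Car9 and Car9 with Car12. Per kb of the longest transcript, Car8 stayed at 456 CPM per kb, while Car4 stood at 126 and Car2 at 122. By that measure Car10 (62.0 CPM per kb) came before Car11 (46.4), and Car12 (5.38) before Car9 (4.09). The annotated transcripts of Car9 had a median length of 0.480 kb and a longest of 2.02 kb.

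All 9 members passed the filter on low counts in each of the 5 comparisons. A gene was called where p was under 0.05 by edgeR's quasi-likelihood test, Benjamini-Hochberg adjusted over all tested genes, and where the levels differed by more than 1.3-fold. Where groups are said below to lie apart, this describes that gene only. The share of all genes whose groups lie apart was not counted. In AAV-shSCR-treated SCA7 mice against untreated WT mice, 4 of 9 members were called, all lower (Car2, Car7, Car8 and Car9), where 4.02% of the 14862 genes tested were called in either direction and 2.66% were called lower. In AAV-shA4-treated SCA7 mice against the same WT mice, the 4 called members were again Car2, Car7, Car8 and Car9, all lower, against 3.45% of genes in either direction and 2.27% lower. Of the 7 other carbonic anhydrases, 5 were tested and 0 called in each of these comparisons. Since the members were chosen with earlier results known, the counts are descriptions. These comparisons share their WT mice, so their values are set side by side below and not counted as separate evidence. Over the 9 members the median was -0.15 (log2) for AAV-shSCR-treated and -0.38 for AAV-shA4-treated mice, where the medians over all genes were 0.00165 and 0.00614. In each case the median is the estimate of 1 gene among members that differed in direction, Car12 (SE 0.72) with AAV-shSCR and Car7 with AAV-shA4. In the direct comparison of AAV-shA4 with AAV-shSCR the members' median was 0.01, with 5 of 9 estimates positive.

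Between AAV-shA4 and AAV-shSCR in SCA7 mice, 0 of 9 members were called, with 0% of genes called by edgeR's quasi-likelihood test, 1222 genes at an unadjusted p under 0.05 and 5 genes called by DESeq2. DESeq2 called 0 of the 9 members as well, and 1 member (Car4) had an unadjusted edgeR p under 0.05. In WT mice at 9 weeks, AAV-shA4 against no vector, 1 member (Car11) had an unadjusted edgeR p under 0.05, as did 1639 of 14733 genes. There edgeR and DESeq2 each called 0 of 9 members, beside 0.0543% of genes by edgeR. That share rests on 8 genes, a count that DESeq2 put at 53 and that ran from 1 (without AAV-shA4 replicate 2) to 43 (without AAV-shA4 replicate 3) when 1 mouse was left out, with 4 and 2 without untreated WT replicates 2 and 3. With 3 mice against 3, an exact two-sided permutation test cannot give a p below 0.1. In untreated WT mice at 25 against 9 weeks, 2 of 9 members were called, both lower (Car4 and Car9), beside 5.14% of 14875 genes in either direction and 1.91% lower.

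**Figure D1:**
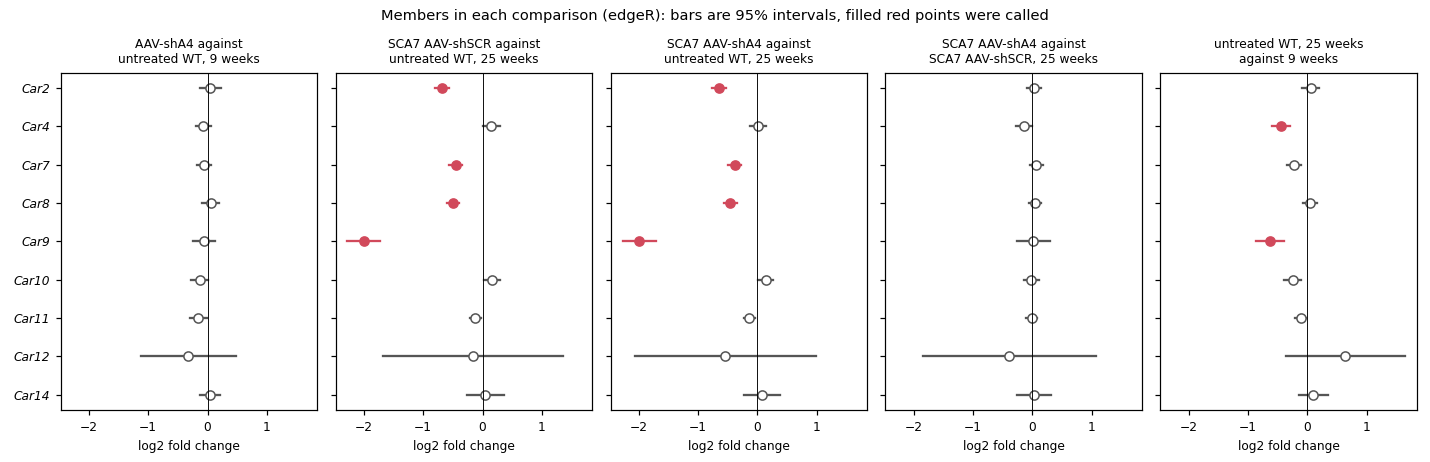
Log2 fold change of each member in the 5 comparisons, by edgeR, with 95% confidence intervals as bars. Filled red points were called, which held for 4 members in each comparison of SCA7 with WT mice, for Car4 and Car9 between 25 and 9 weeks, and for 0 members in the other comparisons.

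**Figure D2:**
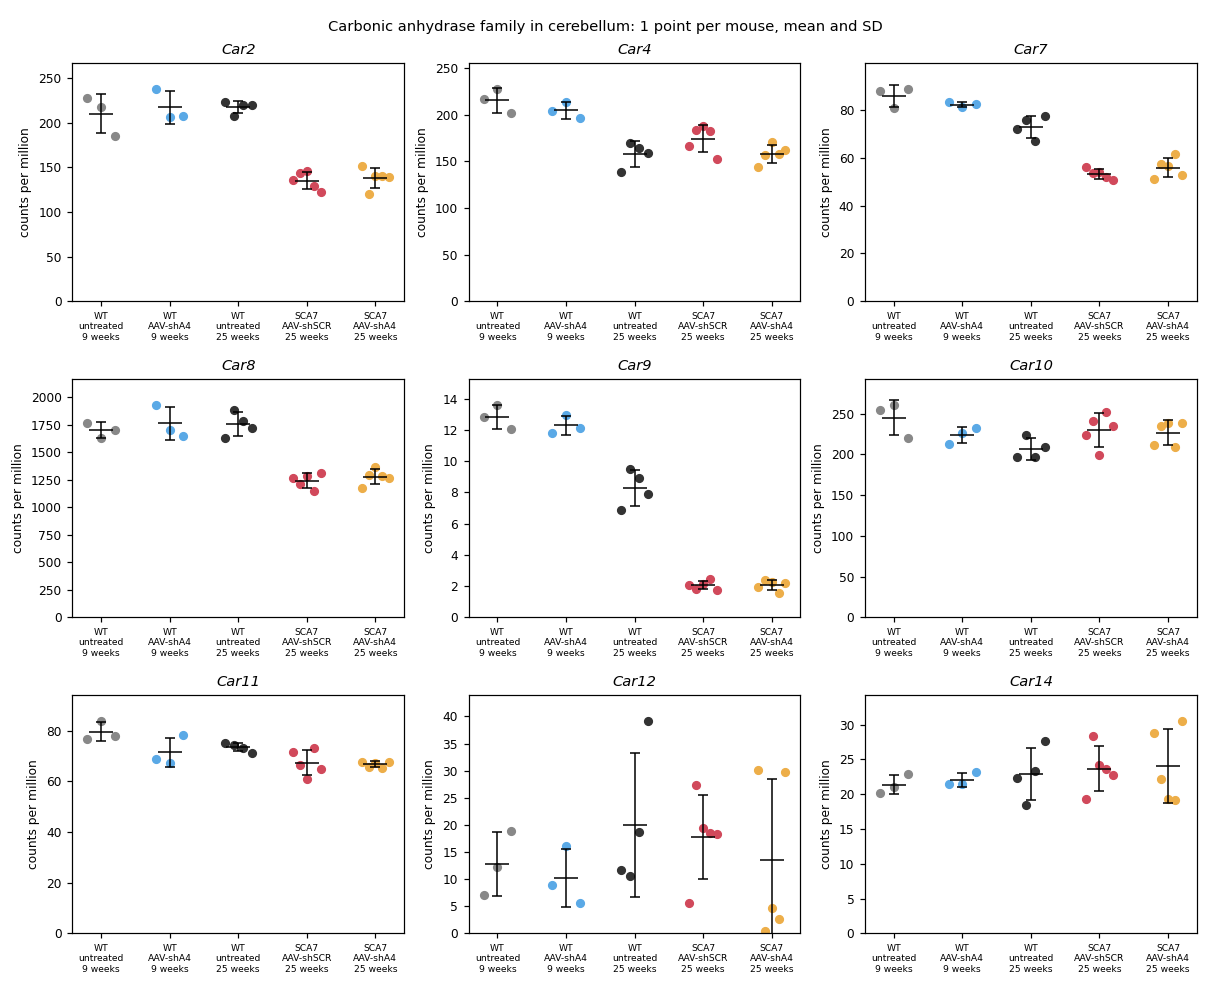
CPM of the 9 members, 1 point per mouse on linear axes from 0, with the group mean and SD as black bars (for Car12 with AAV-shA4 the SD bar reaches below 0 and is not drawn further). Car2, Car7, Car8 and Car9 sit lower in all 10 SCA7 mice than in all 4 untreated WT mice at 25 weeks. The share of all genes that lie apart in this way was not counted.

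Car8 (ENSMUSG00000041261, chr4:8143362-8239041 on GRCm38, minus strand) encodes the IP3 receptor-binding protein of PCs. In untreated WT mice at 25 weeks it stood at 1627, 1887, 1786 and 1725 CPM. In SCA7 mice it stood at 1268, 1213, 1281, 1145 and 1309.9 CPM with AAV-shSCR and at 1179, 1290.3, 1369, 1285 and 1269.6 CPM with AAV-shA4. Every SCA7 mouse was below every WT mouse, while the SCA7 groups overlapped. The level fell in AAV-shSCR-treated SCA7 mice (log2 fold change -0.49 ± 0.05 SE, adjusted p = 2.86e-06 by edgeR's quasi-likelihood test, Benjamini-Hochberg adjusted, lower in 5 of 5 mice) and in AAV-shA4-treated SCA7 mice (log2 fold change -0.46 ± 0.05 SE, edgeR adjusted p = 7.60e-06, lower in 5 of 5 mice). Between AAV-shA4 and AAV-shSCR the estimate was 0.04 with a 95% confidence interval of -0.06 to 0.14 (edgeR adjusted p = 0.853). At 9 weeks it stood at 1771, 1628 and 1706 CPM in untreated WT mice and at 1934, 1706 and 1648 CPM with AAV-shA4, in overlapping ranges. A processed pseudogene, Gm11799, lies within the gene on the same strand and had 5 to 20 counts.

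Itpr1, the IP3 receptor that Car8 binds, was called lower too, at -0.42 ± 0.05 with AAV-shSCR and -0.38 ± 0.05 with AAV-shA4 (log2 ± SE; edgeR adjusted p = 9.18e-06 and 2.51e-05). With AAV-shA4 the Itpr1 difference, like that of Car7 below, only just passed the limit of 1.3-fold. Its mean level was 3349 ± 143 CPM with AAV-shSCR, 3429.6 ± 208 CPM with AAV-shA4 and 4480.4 ± 210.0 CPM in WT mice (SD, n = 5, 5 and 4). The other IP3 receptors, Itpr2 and Itpr3, were not called in either comparison of SCA7 with WT mice. Of 14 PC markers, 10 were called lower with AAV-shSCR and 9 with AAV-shA4, with 0 called higher, and their median log2 fold changes were -0.46 and -0.42. Among them Gng13 was at -0.87 ± 0.07, Rgs8 at -0.78 ± 0.05 and Pcp4 at -0.63 ± 0.06 with AAV-shSCR (log2 ± SE). The summed PC markers were 10578, 11872, 11038 and 11063 CPM in untreated WT mice at 25 weeks. They were 8171, 7790.2, 8043, 7349 and 8170.0 CPM with AAV-shSCR and 7455, 8109, 8613, 8389 and 7963 CPM with AAV-shA4, Itpr1 being the most abundant. None of the 14 markers was at 0 in any library. In bulk cerebellum, fewer PCs and less of this RNA per PC cannot be told apart, and the part of the PC markers in the Car8 result was not tested.

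Within groups, Car8 followed the PC markers from mouse to mouse. Likeness was the Pearson correlation over 20 libraries of log2(CPM + 0.1) after each group's mean was subtracted, given as a description. The median r with the 14 PC markers was 0.807 (0.226 to 0.965), and 14 of 14 were positive. The 3 tested genes most like Car8 were Rgs8 (r = 0.965, rho = 0.965, and r = 0.956 without the 2 libraries farthest from the median), Dner (r = 0.941, rho = 0.947, and r = 0.927 without the 2 libraries farthest from the median) and Itpr1 (r = 0.916, rho = 0.934, and r = 0.925 without the 2 libraries farthest from the median). All 3 are among the PC markers. The libraries share their depth and dissection, which such correlations also carry.

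**Figure D3:**
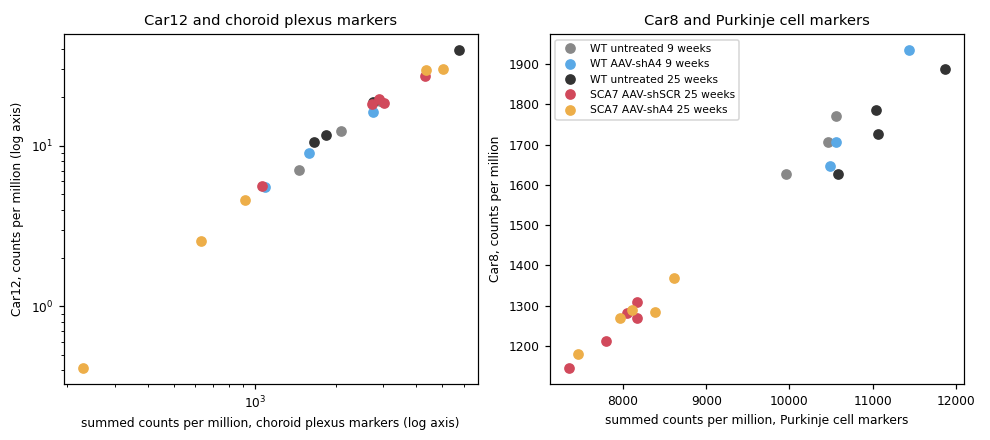
Left, CPM of Car12 against the summed CPM of 13 choroid plexus markers on log axes; right, CPM of Car8 against the summed CPM of 14 PC markers on linear axes that do not start at 0. Each point is a mouse, coloured by group; Car12 ran along the choroid plexus markers in all 5 groups, and SCA7 mice lay below WT mice in both Car8 and PC markers.

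Car7 (ENSMUSG00000031883, chr8:104534689-104550343, plus strand) is the cytosolic enzyme of neurons, where it supplies bicarbonate for currents through GABA receptors. It stood at 72.0, 75.6, 67.0 and 77.5 CPM in untreated WT mice at 25 weeks. It was 55.9, 53.5, 54.0, 51.9 and 50.6 CPM with AAV-shSCR and 51.2, 57.2, 56.6, 61.6 and 52.8 CPM with AAV-shA4. The 10 SCA7 mice lay below the 4 WT mice. The difference with AAV-shSCR was a log2 fold change -0.45 ± 0.05 SE (adjusted p = 1.38e-05 by edgeR's quasi-likelihood test, Benjamini-Hochberg adjusted, 5 of 5 mice lower). With AAV-shA4 it was a log2 fold change -0.38 ± 0.05 SE (edgeR adjusted p = 8.69e-05, 5 of 5 mice lower), a 1.31-fold difference that just passed the limit of 1.3. That call was lost on the fold limit, not on the adjusted p, without AAV-shA4 replicate 1 (-0.35), without AAV-shA4 replicate 5 (-0.37), without WT replicate 2 (-0.37) and without WT replicate 4 (-0.36). The direct difference between AAV-shA4 and AAV-shSCR was 0.07 with a 95% confidence interval of -0.04 to 0.18 (edgeR adjusted p = 0.747).

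Car7 was also lower at 25 than at 9 weeks in untreated WT mice, where it had stood at 88.0, 80.6 and 88.9 CPM. The ranges did not overlap, and the log2 fold change of -0.23 ± 0.05 (SE; edgeR adjusted p = 0.0133, lower in 4 of 4 mice) passed the adjusted p but not the fold limit. With 4 mice against 3 the smallest exact two-sided permutation p is 0.0571. Median r of Car7 with the PC markers was 0.583, and 14 of 14 were positive. The 3 tested genes most like Car7 were Slc1a6 (r = 0.880, rho = 0.910, and r = 0.808 without the 2 libraries farthest from the median), Prkcd (r = 0.833, rho = 0.797, and r = 0.738 without the 2 libraries farthest from the median) and Parp1 (r = 0.830, rho = 0.809, and r = 0.833 without the 2 libraries farthest from the median). Slc1a6, the glutamate transporter of PCs, is among the PC markers. Per library, the log2 ratio of Car7 to Car8 averaged -4.59 in untreated WT mice at 25 weeks, -4.54 with AAV-shSCR and -4.52 with AAV-shA4. The ranges of this ratio overlapped between all 3 groups. Untreated WT mice at 9 weeks averaged -4.31, and their range lay apart from that of untreated WT mice at 25 weeks; ratios were chosen after the values were seen and carry no test.

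Car2 (ENSMUSG00000027562, chr3:14886273-14900770, plus strand) is the fast cytosolic enzyme, which in brain is found mainly in oligodendrocytes and choroid plexus. It stood at 223, 207, 219.9 and 220.3 CPM in untreated WT mice at 25 weeks. It was 136, 144, 145, 129 and 122 CPM with AAV-shSCR and 152, 120.2, 141, 140.1 and 139 CPM with AAV-shA4. Each SCA7 mouse was below each WT mouse of either label time. The difference was a log2 fold change -0.68 ± 0.06 SE with AAV-shSCR (adjusted p = 4.02e-07 by edgeR's quasi-likelihood test, Benjamini-Hochberg adjusted, 5 of 5 mice lower) and a log2 fold change -0.65 ± 0.06 SE with AAV-shA4 (edgeR adjusted p = 8.46e-07, 5 of 5 mice lower). The difference between the SCA7 groups was 0.03, with a 95% confidence interval of -0.09 to 0.15 (edgeR adjusted p = 0.906). At 9 weeks untreated WT mice had 228, 217 and 186 CPM, and the estimate for 25 against 9 weeks was 0.05 ± 0.06 (SE; edgeR adjusted p = 0.577).

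Of 17 oligodendrocyte markers, 6 were called lower with AAV-shSCR (median log2 fold change -0.27, 15 estimates negative and 2 positive) and 5 with AAV-shA4 (median -0.22, 12 negative and 5 positive), with 0 called higher in either. The other 11 and 12 were not called. Ugt8a was at -0.67 ± 0.08, Aspa at -0.55 ± 0.09 and Fa2h at -0.50 ± 0.07 with AAV-shSCR (log2 ± SE). The summed oligodendrocyte markers were 7716, 6574, 7599 and 6739.7 CPM in untreated WT mice at 25 weeks, 5664, 5643, 5828, 5449 and 4879 CPM with AAV-shSCR and 5374, 5834, 5824, 6048 and 5842 CPM with AAV-shA4. Mbp was the most abundant, and none of the 17 was at 0. Between 25 and 9 weeks in untreated WT mice, 7 of the 17 were called lower and 0 higher, and of all 17 estimates 14 were negative and 3 positive, while Car2 was not called. Their part in the Car2 result was not tested. Within groups, the median r of Car2 with the 17 oligodendrocyte markers was 0.188, with 11 of 17 positive, and with the 13 choroid plexus markers it was 0.341. Without the 2 libraries farthest from the median, these values were 0.293 and 0.196, so their order turned. The 3 tested genes most like Car2 were Kcnk13 (r = 0.884, rho = 0.884, and r = 0.839 without the 2 libraries farthest from the median), Wrnip1 (r = 0.883, rho = 0.865, and r = 0.827 without the 2 libraries farthest from the median) and Ednrb (r = 0.846, rho = 0.851, and r = 0.721 without the 2 libraries farthest from the median). Red cells also hold Car2, and the summed blood markers were 4.26 to 7.14 CPM in untreated WT mice at 25 weeks, 4.49 to 30.2 CPM with AAV-shSCR and 6.18 to 10.9 CPM with AAV-shA4. Alas2 was at 0 in at least 1 library, Hbb-bs was the most abundant blood marker, and 2 of 6 tested blood markers were called higher with AAV-shSCR. The part of blood in the Car2 result was not tested.

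Car9 (ENSMUSG00000028463, chr4:43506966-43513729, plus strand), the transmembrane enzyme known as a target of the hypoxia-inducible factors, had the largest fold change of the members in both comparisons of SCA7 with WT mice. It stood at 6.87, 9.48, 8.89 and 7.87 CPM in untreated WT mice at 25 weeks, from 366, 357, 382 and 305 counts. It was 2.09, 1.84, 2.16, 2.43 and 1.77 CPM with AAV-shSCR, from 71, 65, 88, 84 and 67 counts. With AAV-shA4 it was 1.91, 2.41, 2.25, 1.58 and 2.22 CPM, from 86, 93, 81, 50 and 88 counts. All 10 SCA7 mice lay below the lowest WT mouse. The difference was a log2 fold change -2.002 ± 0.13 SE with AAV-shSCR (adjusted p = 2.68e-08 by edgeR's quasi-likelihood test, Benjamini-Hochberg adjusted, 5 of 5 mice lower), a level 4.00-fold higher in WT mice. With AAV-shA4 it was a log2 fold change -1.99 ± 0.13 SE (edgeR adjusted p = 2.82e-08, 5 of 5 mice lower). From the most negative fold change up, Car9 was number 19 of 14862 genes tested with AAV-shSCR and number 3 with AAV-shA4. An exact two-sided permutation test on log2(CPM + 0.1) gave p = 0.0159 in each comparison, the smallest that 5 against 4 mice allow.

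AAV-shA4 and AAV-shSCR gave overlapping Car9 levels in SCA7 mice, with an estimate of 0.01 and a 95% confidence interval of -0.27 to 0.30 (edgeR adjusted p = 0.988). In WT mice Car9 was also lower at the later time. It stood at 12.8, 13.6 and 12.1 CPM in untreated mice at 9 weeks, and all 4 mice at 25 weeks were lower (log2 fold change -0.63 ± 0.11 SE, adjusted p = 0.00326 by edgeR's quasi-likelihood test, Benjamini-Hochberg adjusted). AAV-shA4 at 9 weeks left 11.8, 12.97 and 12.1 CPM, overlapping the untreated mice (log2 fold change -0.06 ± 0.08 SE, edgeR adjusted p = 0.808). The log2 ratio of Car9 to Car8 per library ran from -7.87 to -7.62 in untreated WT mice at 25 weeks, from -9.45 to -8.82 with AAV-shSCR and from -9.58 to -9.01 with AAV-shA4. The SCA7 ranges lay apart from the WT range, and the ratio was not tested. An antisense gene, Gm12454, overlaps the start of Car9 with 5 to 42 counts. The libraries came from a kit that keeps strand, but whether the counting used it is not stated in the sources used here, so reads from the pair may not be told apart. The 3 tested genes most like Car9 were Apba2 (r = 0.838, rho = 0.795, and r = 0.808 without the 2 libraries farthest from the median), Creb5 (r = 0.813, rho = 0.792, and r = 0.743 without the 2 libraries farthest from the median) and Tceanc (r = 0.807, rho = 0.857, and r = 0.852 without the 2 libraries farthest from the median). Within groups, the median r of Car9 was -0.093 with the PC markers, 0.331 with the 11 granule cell markers (11 positive) and 0.555 with the 6 tested blood markers (6 positive). Of those 6, 3 were called lower between the times in untreated WT mice, as Car9 was: Hbb-bs (-0.87 ± 0.28), Hba-a1 (-1.17 ± 0.35) and Hbb-bt (-1.07 ± 0.31, log2 ± SE). The summed blood markers were 6.32, 11.5 and 8.68 CPM at 9 weeks and 4.26, 4.91, 7.14 and 5.73 CPM at 25 weeks in these mice, in overlapping ranges. Against WT mice at 25 weeks, all 6 estimates were positive in both SCA7 groups. The granule cell markers had a median log2 fold change of -0.05 with AAV-shSCR (8 of 11 negative) and -0.14 with AAV-shA4 (9 of 11 negative) against these WT mice. Their sums were 7092 to 7350 CPM with AAV-shSCR, 6336 to 7191 CPM with AAV-shA4 and 6829 to 8097 CPM in WT mice, and 0 were called by edgeR. The part of blood and granule cell markers in the Car9 results was not tested.

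Of 15 hypoxia-inducible targets other than Car9, 1 was called lower with AAV-shSCR, the glycolytic regulator Pfkfb3 at -0.41 ± 0.06 (log2 ± SE; edgeR adjusted p = 1.24e-04). The 15 had a median of -0.04 (log2) in that comparison and of 0.01 with AAV-shA4, where edgeR called 0. In untreated WT mice at 25 against 9 weeks, 1 of the 15, Adm, was called higher at 0.76 ± 0.25 and 0 were called lower. The core of the hypoxia response element, ACGTG, was looked for on both strands in the promoter windows of the members, each 250 bases before to 50 after a gene's start, from RefSeq on GRCm38.p6. A window was found for 7 of the 9 members, in 11 windows, and not for Car2 or Car8. The letters were present in 4 windows, those of Car4, Car9 and Car14 and the second of Car10. Of all 32851 windows in that table, 19.6% held them. The windows of Car9 and Car4 are printed because these were the members called lower at 25 than at 9 weeks in WT mice. Capitals mark the letters as read on the printed strand, where CACGT is ACGTG on the other strand. In Car9 they begin 18 bases before the RefSeq start of the window, and in Car4 at base 3 after it. The gene coordinates printed with each gene come from another annotation and begin elsewhere. Counted from those, the letters lie after the beginning of Car9 and before that of Car4. A match is a description of the letters only. The Car9 window is chr4:43506776-43507075 and the Car4 window chr11:84957504-84957803, both on the plus strand.
Car9: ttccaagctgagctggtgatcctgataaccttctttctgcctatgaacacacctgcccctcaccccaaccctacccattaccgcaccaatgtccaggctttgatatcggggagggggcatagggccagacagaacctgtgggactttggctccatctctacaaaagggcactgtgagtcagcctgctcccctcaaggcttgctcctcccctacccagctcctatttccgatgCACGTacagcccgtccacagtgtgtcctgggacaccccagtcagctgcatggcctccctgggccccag
Car4: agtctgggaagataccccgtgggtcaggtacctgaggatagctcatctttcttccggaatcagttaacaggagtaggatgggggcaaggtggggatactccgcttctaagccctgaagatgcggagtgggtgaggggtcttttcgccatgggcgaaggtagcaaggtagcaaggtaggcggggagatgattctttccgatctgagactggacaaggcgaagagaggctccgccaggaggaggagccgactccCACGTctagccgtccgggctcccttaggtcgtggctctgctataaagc

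Car4 (ENSMUSG00000000805, chr11:84957786-84966044, plus strand), the lipid-anchored enzyme of neuronal and capillary surfaces, was called between the times and in neither comparison of SCA7 with WT mice. It stood at 216, 228 and 201 CPM in untreated WT mice at 9 weeks and at 139, 169.96, 164.1 and 158 CPM at 25 weeks. The 4 later mice lay below the 3 earlier ones (log2 fold change -0.45 ± 0.07 SE, adjusted p = 0.00173 by edgeR's quasi-likelihood test, Benjamini-Hochberg adjusted, lower in 4 of 4 mice). In SCA7 mice it stood at 165.95, 183, 187, 181.8 and 153 CPM with AAV-shSCR and 144, 157, 170.6, 158 and 162 CPM with AAV-shA4. Both groups overlapped the WT mice of that time, with estimates of 0.15 ± 0.07 and 0.01 ± 0.07 (SE; edgeR adjusted p = 0.147 and 0.970). Between AAV-shA4 and AAV-shSCR the estimate was -0.14 ± 0.06 (edgeR adjusted p = 0.587), and the ranges overlapped. Between the times in WT mice, 2 of 11 granule cell markers were called lower (Cbln1 at -0.50 ± 0.07 and Slc17a7 at -0.43 ± 0.06, log2 ± SE). Their sums ran 9251, 9033 and 8329 CPM at 9 weeks and 6829, 8097, 7971 and 7793 CPM at 25 weeks in untreated WT mice, Cbln3 being the most abundant and none of the 11 at 0. The part of these markers in the Car4 difference was not tested. Within groups the median r of Car4 with them was 0.510, with 11 of 11 positive.

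Car12 (ENSMUSG00000032373, chr9:66713686-66766845, plus strand), a transmembrane enzyme of secreting epithelia, varied most from mouse to mouse, from 0.414 to 39.2 CPM. It stood at 11.6, 10.5, 18.7 and 39.2 CPM in untreated WT mice at 25 weeks, 5.60, 27.3, 19.4, 18.6 and 18.3 CPM with AAV-shSCR and 30.1, 0.414, 4.59, 2.57 and 29.7 CPM with AAV-shA4. With AAV-shA4, replicates 1 and 5 were high and replicates 2, 3 and 4 low. The groups overlapped in all 5 comparisons and Car12 was called in none, with log2 estimates from -0.54 ± 0.72 (AAV-shA4-treated SCA7 against WT mice) to 0.64 ± 0.45 (25 against 9 weeks; SE). The summed choroid plexus markers were 1839, 1655, 2761 and 5758 CPM in untreated WT mice at 25 weeks. They were 1059, 4323, 2899, 3039.7 and 2742 CPM with AAV-shSCR and 5003, 228, 919.6, 627 and 4337 CPM with AAV-shA4. Ttr was the most abundant and none of the 13 was at 0, down to 21.6 CPM of Ttr in AAV-shA4 replicate 2. Within groups the median r of Car12 with the 13 markers was 0.988 (0.786 to 0.996). How much choroid plexus each dissection held was not tested beyond these values. Of the 13 markers, 0 were called by edgeR in any of the 5 comparisons.

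Car14 (ENSMUSG00000038526, chr3:95897768-95904691, minus strand), a transmembrane enzyme of neuronal membranes and epithelia, stood at 22.3, 18.4, 23.3 and 27.6 CPM in untreated WT mice at 25 weeks. It was 19.4, 28.3, 24.2, 23.7 and 22.7 CPM with AAV-shSCR and 28.7, 22.1, 19.3, 19.2 and 30.6 CPM with AAV-shA4, in overlapping ranges. As with Car12, AAV-shA4 replicates 1 and 5 were the highest of their group. Its log2 estimates stayed between 0.02 and 0.10 in the 5 comparisons. The median r with the choroid plexus markers was 0.762, and the r between Car14 and Car12 was 0.721. The gene overlaps Aph1a on the opposite strand, which had 422 to 654 counts. Without a stated strand setting, reads in the overlap may not be told apart.

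Car10 (ENSMUSG00000056158, chr11:93098028-93601749, plus strand) and Car11 (ENSMUSG00000003273, chr7:45699843-45704682, plus strand), the secreted members without enzyme activity, changed little. Car10 averaged 207 ± 12.9 CPM (SD, n = 4) in untreated WT mice at 25 weeks, 230.1 ± 20.4 CPM (SD, n = 5) in AAV-shSCR-treated and 227 ± 15.4 CPM (SD, n = 5) in AAV-shA4-treated SCA7 mice. Its estimates against WT mice were 0.16 ± 0.06 and 0.14 ± 0.06 (SE; edgeR adjusted p = 0.104 and 0.179), with overlapping ranges. At 25 against 9 weeks in untreated WT mice it was -0.25 ± 0.06 (edgeR adjusted p = 0.0218), past the adjusted p and under the fold limit, with overlapping ranges. Car11 averaged 73.5 ± 1.64 CPM (SD, n = 4) in those WT mice, 67.5 ± 5.11 CPM (SD, n = 5) in AAV-shSCR-treated and 66.8 ± 1.14 CPM (SD, n = 5) in AAV-shA4-treated SCA7 mice. With AAV-shA4 the 5 mice lay below the 4 WT mice and the log2 fold change was -0.14 ± 0.04 (edgeR adjusted p = 0.0495), under the fold limit. With AAV-shSCR it was -0.12 ± 0.04 (edgeR adjusted p = 0.0718), with overlapping ranges, and the direct difference between the SCA7 groups was -0.01 ± 0.04. Between 25 and 9 weeks in untreated WT mice Car11 was at -0.11 ± 0.04 (edgeR adjusted p = 0.0672). It was not called there, though the ranges lay apart. Of the 3 neurexins, their binding partners, 0 were called by edgeR in any comparison. Nrxn2, the most abundant, averaged 551 ± 28.4 CPM with AAV-shSCR and 566 ± 19.3 CPM in WT mice (SD, n = 5 and 4).

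The other 7 carbonic anhydrase genes were low in cerebellum. Over the 20 libraries, Car15 ran from 5.88 to 11.1 CPM, Car13 from 5.47 to 9.38 CPM and Car5b, a mitochondrial enzyme, from 0.958 to 1.78 CPM. Car5a, the other mitochondrial enzyme, ran from 6 to 28 counts and Car3 from 6 to 20. Car1 had 0 to 4 counts, at 0 in 11 libraries, and Car6, the secreted enzyme of saliva, 0 to 2 counts, at 0 in 14. None of the 4 or 5 that passed the filter was called by edgeR in the comparisons of SCA7 mice or of AAV-shA4 at 9 weeks. Between 25 and 9 weeks in untreated WT mice, Car5a was called higher (log2 fold change 1.03 ± 0.32 SE, adjusted p = 0.0415 by edgeR, 4 of 4 mice) and Car15 lower (log2 fold change -0.42 ± 0.09 SE, adjusted p = 0.00991 by edgeR, 4 of 4 mice). Both are uncertain, since Car15 overlaps Gm20518 on the same strand (97 to 185 counts) and Car5a overlaps BC048644 on the opposite strand (5 to 24 counts, about as many as its own). Of the 2 receptor phosphatases with a carbonic anhydrase-like domain, 0 were called by edgeR in any comparison. With AAV-shSCR, Ptprz1 was at -0.11 ± 0.03 and Ptprg at 0.19 ± 0.06 (log2 ± SE), both under the fold limit.

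The transporters that work beside the family are given next. Of all genes tested, 4.02% were called in either direction with AAV-shSCR against WT mice, 3.45% with AAV-shA4 and 5.14% between the times. Of 9 bicarbonate and chloride-bicarbonate transporters, 1 was called higher and 0 lower with AAV-shSCR, the red cell exchanger Slc4a1 at 0.56 ± 0.14 (log2 ± SE), which is also a blood marker. With AAV-shA4, 0 of 9 were called by edgeR against WT mice. Slc4a4, the most abundant, was at -0.09 ± 0.04 and -0.06 ± 0.04. Of 8 sodium-proton exchangers, Slc9a3 was called lower (-0.59 ± 0.07) and Slc9a9 higher (0.41 ± 0.08) with AAV-shSCR, and only Slc9a3 with AAV-shA4 (-0.60 ± 0.07). In untreated WT mice at 25 against 9 weeks, Slc9a7 was called higher (0.67 ± 0.05), as was the IP3 receptor Itpr3 (0.76 ± 0.06). Of the 4 monocarboxylate transporters and chaperone genes, 0 were called by edgeR in any comparison, Bsg, the chaperone and most abundant, standing at -0.11 ± 0.04 with AAV-shSCR. None of these lists had a called gene at 9 weeks or between AAV-shA4 and AAV-shSCR by edgeR.

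With AAV-shSCR against WT mice, Aldoc (-0.66 ± 0.06, log2 ± SE), a gene also expressed in PCs, was the 1 called of 13 astrocyte and Bergmann glia markers. Of these 13, 12 had negative estimates (median -0.17), and their sums were 6464 to 6955 CPM in untreated WT mice at 25 weeks, 5297 to 5761 CPM with AAV-shSCR and 5359 to 5996 CPM with AAV-shA4. SCA7 mice lay below WT mice in this sum. Without Aldoc, a choice made after the values were seen, the sums were 4349.8 to 4462, 3891 to 4139 and 3901 to 4553 CPM, and those with AAV-shA4 overlapped the WT mice. The part of these markers in the members' results was not tested. Of 13 endothelial markers Cldn5 was called lower (-0.40 ± 0.08) and Emcn higher (0.52 ± 0.08). Of 11 granule cell, 5 molecular layer interneuron, 12 microglia and 7 ependyma markers, edgeR called 0 in that comparison, with median log2 fold changes of -0.05, -0.06, 0.02 and -0.24. With AAV-shA4 against WT mice edgeR called 0 of these markers as well, and the medians were -0.14, -0.06, 0.07 and -0.02. Between AAV-shA4 and AAV-shSCR the PC markers had a median log2 fold change of 0.04, beside 0.04 for Car8 and 0.07 for Car7. Of the PC marker estimates 12 of 14 were positive, as were 14 of 17 for oligodendrocytes and 11 of 13 for astrocytes and Bergmann glia. For granule cells 2 of 11 were positive and for choroid plexus 0 of 13, and edgeR called 0 markers of these lists there. At 9 weeks the ependymal Ccdc153 was the 1 marker called, higher with AAV-shA4 (1.77 ± 0.25).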

How the data were processed

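Per the labels and the study's methods, the authors trimmed reads with cutadapt 1.10, removed ribosomal reads with Bowtie2 2.2.8, aligned to mm10 with STAR 2.5.3a and counted reads per Ensembl 102 gene with HTSeq 0.6.1p1; the deposited values are raw counts. Of 55401 genes, 55141 matched GENCODE M21, which gave symbols, positions and transcript lengths. From the counts, edgeR 4.0.16 quasi-likelihood fits (R 4.3.3, TMM, filterByExpr) on protein-coding genes were computed separately for the 6 libraries at 9 weeks, the 14 at 25 weeks and the 7 from untreated WT mice, with p-values adjusted over all tested genes. DESeq2 1.42.0 was an alternative. Exact tests, correlations and CPM used Python 3.11.15 and scipy 1.17.1. Named genes were all 9 members, the other anhydrases, up to 4 called genes of each list with the largest fold changes or else its most abundant gene, and the 3 tested genes with the highest r for each member called with AAV-shSCR; Itpr2, Ptprg, Slc4a4, marker genes at 0, the ratios and the 2 printed windows were picked after their values were seen. The members and lists were chosen with earlier results of these data known. Members' proteins were not analysed here, and some marker genes that the naming rule covers are not reported here.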

Additional observations from a re-analysis of the deposited data

How the results depend on the processing

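Every call of Car2, Car8 and Car9 in the comparisons of SCA7 with WT mice, and of Car4 and Car9 between the times, was made again under each alternative run, with the same direction. Over the alternatives, 603 log2 fold changes of members kept their direction and side of the threshold, 31 reversed in members that were not called and 5 became weaker, all of them Car7 with AAV-shA4 against WT mice. Leaving out 1 mouse at a time gave 3 to 4 called members in that comparison, and Car7 fell below the fold limit without AAV-shA4 replicate 1 or 5 or WT replicate 2 or 4. Adjusted p alone, with no fold limit, gave 4 members between the times and 2309, 2018 and 3419 genes for AAV-shSCR against WT mice, AAV-shA4 against WT mice and the times. At 9 weeks, where 8 genes were called by edgeR, the count was 26 with no filter, 53 by DESeq2, 16 with every gene of the table, 20 with all 20 libraries in 1 model, and 1 to 43 with 1 mouse left out (1 without AAV-shA4 replicate 2, 43 without AAV-shA4 replicate 3, 4 without untreated WT replicate 2 and 2 without untreated WT replicate 3); the cause was not tested. DESeq2 called 5 genes between AAV-shA4 and AAV-shSCR, where edgeR called 0 and 1222 had an unadjusted p under 0.05. Leaving out 1 mouse at a time gave 498 to 596, 452 to 572 and 573 to 804 called genes for AAV-shSCR against WT mice, AAV-shA4 against WT mice and the times.

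Estimates of members that were not called changed sign when 1 mouse was left out. At 9 weeks the ranges were -0.0331 to 0.11 for Car2, -0.0221 to 0.0953 for Car8 and -0.81 to 0.0774 for Car12. Against WT mice they were -0.36 to 0.40 for Car12 and -0.0383 to 0.15 for Car14 with AAV-shSCR, and -0.0520 to 0.0437 for Car4, -1.07 to 0.00983 for Car12 and -0.0275 to 0.17 for Car14 with AAV-shA4. Between AAV-shA4 and AAV-shSCR they were -0.00306 to 0.0786 for Car2, -0.0447 to 0.0917 for Car9, -0.0703 to 0.0137 for Car10, -0.0492 to 0.0187 for Car11 and -0.0770 to 0.0975 for Car14, and between the times -0.0298 to 0.11 for Car2. The cause was not tested. Counts of 50 to 93 reads for Car9 in SCA7 mice limit how finely the SCA7 groups can be compared.

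Replicate numbers in the labels were taken not to pair the mice. Same-numbered mice of different groups had correlations from -0.297 to 0.539. These were not set beside those of differently numbered mice, so they cannot decide the question. With the replicate number as a replicate block, 37 genes were called at 9 weeks, 563 and 488 with AAV-shSCR and AAV-shA4 against WT mice, 0 between AAV-shA4 and AAV-shSCR by edgeR and 525 between the times. The block gave -0.37 for Car7 with AAV-shA4 against WT mice (edgeR adjusted p = 3.76e-04), under the fold limit, and -0.00162 for Car14 between the times, where the value without it was 0.10. It changed no other call of a member.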
